A study of Mus musculus with 8 samples.

Results

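The integrin and laminin genes were read in cells sorted from the embryonic arteries in which the first hematopoietic stem and progenitor cells form. The set was chosen by gene name, from the Itga, Itgb, Lama, Lamb and Lamc symbols on the array, without the integrin-binding proteins Itgb1bp and Itgb3bp and the integrin-like Itgbl1. It holds 36 of the 31890 genes on the array, with 18 integrin alpha, 9 integrin beta and 9 laminin genes. Of these, 29 had a signal well above background on each array of 1 or more groups and were tested, namely 14 integrin alpha, 6 integrin beta and all 9 laminin genes. The 7 others were not tested. Itga7 was above background on 1 of 8 arrays, and Itgad, Itgae, Itgax, Itgb2l, Itgb6 and Itgb8 on 0 of 8. The gene for the laminin beta1 chain stands on this array under an older name that the rule misses, so its values (as Lamb1) are given beside the set and not counted in it.

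Integrins are pairs of an alpha and a beta chain that span the cell membrane and hold the cell to its surroundings. The pair sets the ligand: alpha-4 with beta-1 or beta-7 binds VCAM-1, MAdCAM-1 and fibronectin, alpha-IIb with beta-3 binds fibrinogen, the beta-2 chain pairs with leukocyte alpha chains that bind ICAMs, and alpha-6 with beta-1 or beta-4 binds laminin. Laminins are trimers of an alpha, a beta and a gamma chain and form a sheet in every basement membrane. Laminins with an alpha-4 or alpha-5 chain are those of vessel walls, and the alpha-3 and beta-3 chains are known from epithelium. Alpha-IIb, also called CD41, is a megakaryocyte and platelet protein that also marks the earliest blood cells of the embryo.

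All groups came from mouse embryos at E10.5 that carried the Tg(Ly6a-GFP) transgene, in which the promoter of the Sca-1 gene Ly6a drives green fluorescent protein (GFP). Their mothers were F1 females of C57BL/6 and 129S1/SVImJ, and their fathers carried the transgene. The labels give the sex as male. The aorta-gonad-mesonephros region of 100 embryos was pooled with their vitelline and umbilical arteries. Every sorted cell was CD31+ VEC+ ESAM+, where VEC is VE-cadherin. Kit+ cells were hematopoietic cluster cells, which bud into the lumen, and Kit- cells were endothelial cells. GFP then separated the classes into 4 groups: 30000 cluster cells with GFP and 130000 without it, and 70000 endothelial cells with GFP and 300000 without it. Every group's RNA was divided into 2 fractions, each amplified and read on its own array, so n = 2 arrays a group. The arrays of a group thus divide 1 RNA of 1 pool, and each p-value measures the technical spread between arrays and not variation between embryos or sorts. The sort markers followed the labels: Ly6a was read at levels from -0.57 to 0.42 on the GFP+ arrays and from -3.95 to -3.40 on the GFP- arrays, and Kit from 1.94 to 2.88 in cluster cells and from 1.29 to 1.36 in endothelial cells. On each array 54.6% to 63.7% of probes had a signal well above background and no spot was saturated, and precision is limited by how few arrays there were.

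A level is the log2 of a probe's processed signal minus the array's 75th percentile, so 0 marks that percentile. Levels of different genes come from different probes and were not compared with each other. A difference is given as a log2 fold change ± SE from limma, with 2 against 2 arrays, and was called at a Benjamini-Hochberg adjusted p under 0.05 over all 19538 genes tested. In sorted cells measured in bulk, fewer cells of a type and less RNA per cell cannot be told apart.

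RefSeq promoters were at hand for 23 of the 36 members. Those of Itga2b, Itga4, Itgb7 and Lama5 are shown because these genes were measured above background and called higher in GFP+ than in GFP- cluster cells. Each run gives the 250 bases before the gene's start on build GRCm38.p6, 5′ to 3′ on the gene's strand. Capitals mark matches to AGGAAG or CGGAAG, the core of sites for Ets factors, or to TGTGGT or TGCGGT, the core of sites for Runx factors, on either strand. The search letters of the sets do not overlap each other.
Itga2b promoter, chr11:102469884-102470133, minus strand: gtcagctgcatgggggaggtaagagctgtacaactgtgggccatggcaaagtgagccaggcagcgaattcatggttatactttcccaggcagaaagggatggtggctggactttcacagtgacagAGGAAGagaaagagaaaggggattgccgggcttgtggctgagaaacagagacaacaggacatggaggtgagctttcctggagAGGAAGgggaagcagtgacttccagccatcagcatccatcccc
Itga4 promoter, chr2:79255176-79255425, plus strand: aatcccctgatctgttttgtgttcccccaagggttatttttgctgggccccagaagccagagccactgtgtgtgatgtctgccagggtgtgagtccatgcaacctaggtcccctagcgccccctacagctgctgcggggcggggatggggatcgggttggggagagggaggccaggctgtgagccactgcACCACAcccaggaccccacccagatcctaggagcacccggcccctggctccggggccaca
Itgb7 promoter, chr15:102231936-102232185, minus strand: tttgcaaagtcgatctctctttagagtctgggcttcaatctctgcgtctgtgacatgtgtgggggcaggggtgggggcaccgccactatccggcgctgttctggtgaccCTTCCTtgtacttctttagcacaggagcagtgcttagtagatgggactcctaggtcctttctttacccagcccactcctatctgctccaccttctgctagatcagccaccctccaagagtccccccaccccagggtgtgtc
Lama5 promoter, chr2:180225860-180226109, minus strand: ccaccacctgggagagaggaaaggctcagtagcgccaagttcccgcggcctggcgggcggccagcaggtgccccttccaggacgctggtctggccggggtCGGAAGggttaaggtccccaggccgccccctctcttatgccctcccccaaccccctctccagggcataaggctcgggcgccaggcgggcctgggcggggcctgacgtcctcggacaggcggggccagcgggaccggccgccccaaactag
The Itga2b window held 2 Ets matches, at 125 to 120 and 43 to 38 bases before the start. The Itga4 window held 1 Runx match on the other strand, at 60 to 55 bases. The Itgb7 window held 1 Ets match on the other strand, at 141 to 136 bases, and the Lama5 window 1 Ets match at 150 to 145 bases. Among 32851 promoter windows of the same length, 39.2% held an Ets match and 18.6% a Runx match. AGATAA or TGATAA, the core of GATA sites, matched in 0 of the 4 windows and in 16.6% of all. A match is a description of letters, and no match says only that they are not in this window.

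The Itga2b probe is printed because all Itga2b values below come from it. Its 60 bases lie over 209 bases of the mm9 genome, so it spans an exon junction and reads spliced RNA.
Itga2b probe, chr11:102319453-102319661: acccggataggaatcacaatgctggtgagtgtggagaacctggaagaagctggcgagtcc
The values of Itga4 come from its brighter probe, at chr2:79173193-79173252 (mm9); its other probe was above background on 4 of 8 arrays and is not used.

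The tested members were sorted by the group that held their highest or lowest arrays. In 7 of the 29 tested members both arrays of GFP+ cluster cells lay above the other 6 arrays, where 13.5% of all genes tested did so. All 7 were integrins: Itga2b, Itga4, Itgal, Itgb2, Itgb3, Itgb5 and Itgb7. GFP+ cluster cells were lowest for 9 members (all genes 21.4%), namely Itga1, Itga2, Itga3, Itga6, Itga8, Itga9, Lama1, Lama4 and Lamc1. GFP+ endothelial cells were highest for 10 members (all genes 14.7%), of which 5 were laminins, Lama3, Lama5, Lamb2, Lamb3 and Lamc3, and 5 integrins, Itga5, Itga8, Itga10, Itgb1 and Itgb4. They were lowest for 1 member, Itgb5 (all genes 26.7%). Lamb3 passed the filter on background only through GFP+ endothelial cells, so its place at the top there is not independent of the filter. GFP- endothelial cells were highest for 4 members (all genes 22%), Itga1, Itga2, Lama4 and Lamc1, and lowest for 5 (all genes 11.9%), Itga4, Itga10, Itgb2, Itgb4 and Itgb7. GFP- cluster cells were highest for 2 members (all genes 7.81%), Itga3 and Lama1, and lowest for 4 (all genes 3.65%), Itgb1, Itgb3, Lama5 and Lamb2.

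**Figure D1:**
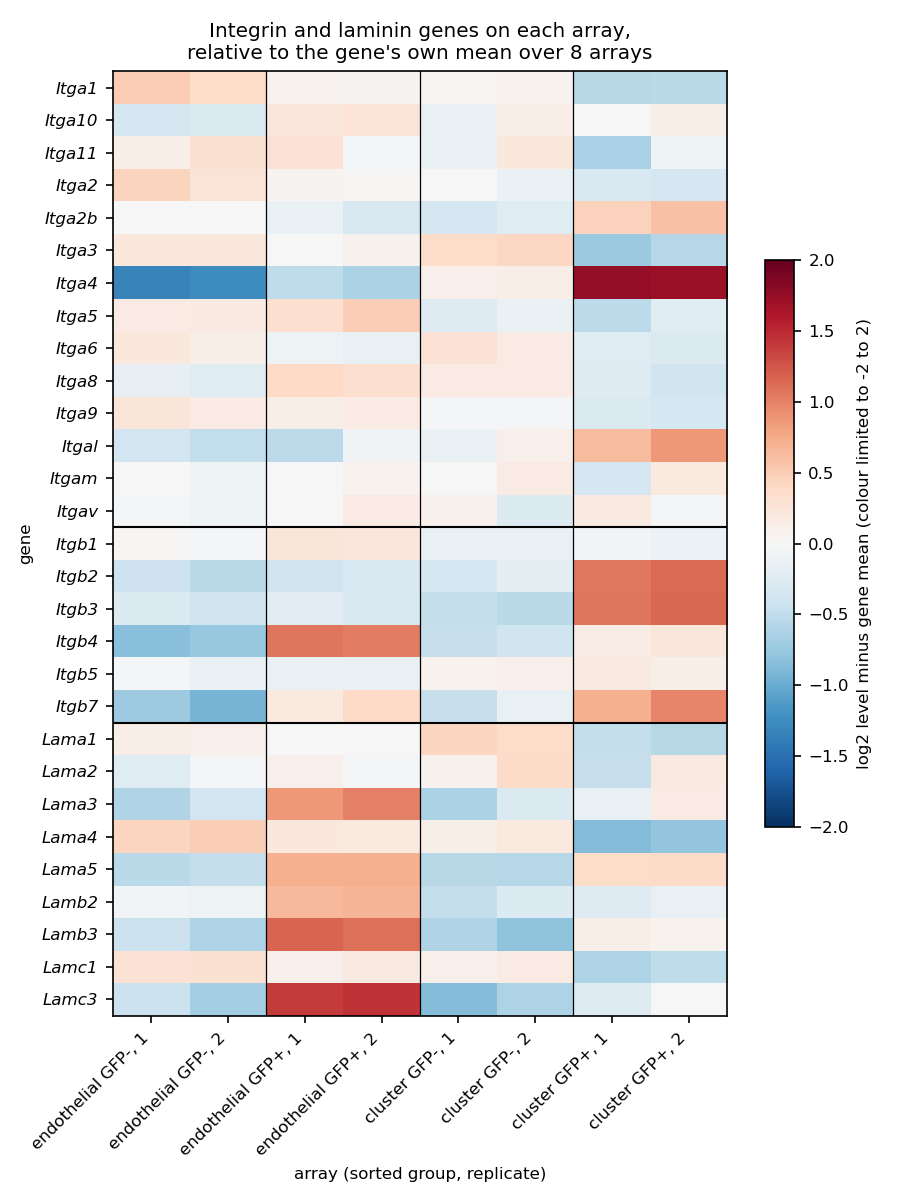
Levels of the 29 tested integrin and laminin genes (rows) on the 8 arrays (columns), each as the log2 level minus the gene's mean over the 8 arrays, with colour limited to -2 to 2. Itga4, Itgb2, Itgb3 and Itgb7 are red in GFP+ cluster cells, and Lama3, Lamb3, Lamc3 and Itgb4 are red in GFP+ endothelial cells.

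The first comparison asks which adhesion genes differ between cluster cells in which the Ly6a reporter is active and those in which it is not. Of the 29 tested members, 10 rose and 8 fell in GFP+ cluster cells, where 11.8% of all genes tested rose and 20.9% fell (32.7% in all). The risers were the integrins of blood cells and platelets, Itgb4, Lama5, Lamc3 and Lamb3, the last below background in both groups, and those that fell were the alpha chains Itga1, Itga3, Itga6, Itga8 and Itga9, which bind collagen, laminin and other matrix proteins, and Lama1, Lama4 and Lamc1. The members' median log2 difference was 0.07, against -0.08 over all genes tested.

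Itga4 encodes the alpha-4 chain, which holds blood progenitors to VCAM-1 and fibronectin. It was read at 2.11 and 2.08 on the arrays of GFP+ cluster cells, 0.45 and 0.47 in GFP- cluster cells, and among endothelial cells at -0.16 and -0.28 with GFP and -0.99 and -0.90 without it. No 2 groups overlapped, and the order ran from GFP+ cluster cells down to GFP- endothelial cells. GFP+ exceeded GFP- cluster cells by 1.63 ± 0.059, a 3.10-fold difference (adjusted p = 4.86e-05).

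Itgb7, whose product pairs with alpha-4 in the receptor for MAdCAM-1, was read at -2.26 and -1.99 in GFP+ cluster cells and at -3.42 and -3.11 in GFP- cluster cells. Its endothelial levels were -2.77 and -2.56 in GFP+ and -3.69 and -3.89 in GFP- cells. GFP+ arrays lay above GFP- arrays in both classes, and within cluster cells the difference was 1.15 ± 0.15 (adjusted p = 0.00354). Itgb1, the other partner of alpha-4 and the chain most integrins share, differed by 0.07 ± 0.045 and was not called (adjusted p = 0.309).

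Itga2b and Itgb3 encode the 2 chains of the platelet fibrinogen receptor. Itga2b was read at -1.57 and -1.45 in GFP+ cluster cells, and from -2.37 to -2.03 on the other 6 arrays. Itgb3 was read at 1.57 and 1.65 in GFP+ cluster cells, and from -0.03 to 0.28 on the other 6 arrays. For both genes GFP+ cluster cells stood alone at the top, and the difference from GFP- cluster cells was 0.82 ± 0.081 for Itga2b (adjusted p = 0.00113) and 1.61 ± 0.068 for Itgb3 (adjusted p = 7.15e-05). Itgb3 also pairs with the alpha-v chain, and Itgav, which encodes it, differed by 0.17 ± 0.14 and was not called. Itgb5, another partner of alpha-v, differed by 0.07 ± 0.052 and was not called either.

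Markers of megakaryocytes and platelets were read beside this pair. Of 7 such genes, 4 rose in GFP+ against GFP- cluster cells, Gp9 by 1.23, Gp1ba by 1.09, Pf4 by 0.60 and Ppbp by 0.54, and 0 fell in the limma fit, also at an unadjusted p under 0.05. Their summed linear level, in units of the array's 75th percentile, was 7.39 to 7.64 in GFP+ and 4.76 to 4.84 in GFP- cluster cells, and 9.12 to 9.73 in GFP+ and 19.1 to 19.3 in GFP- endothelial cells. Gp5 and Gp6, receptors of mature platelets, gave no signal well above background in GFP+ cluster cells. GFP- endothelial cells had the highest sum of platelet markers. Their Itga2b levels of -2.05 and -2.03 were the highest outside GFP+ cluster cells, and their Itgb3 levels were 0.23 and 0.10. The part of such cells in the rise of Itga2b and Itgb3 was not tested.

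The leukocyte chains rose too. Itgb2, the common beta chain of the ICAM-binding leukocyte integrins, was read at -1.64 and -1.57 in GFP+ cluster cells, and from -3.24 to -2.88 on the other 6 arrays. It rose by 1.36 ± 0.080 (adjusted p = 0.000189). Itgal, the alpha chain of LFA-1, was read at -2.42 and -2.19 in GFP+ cluster cells, and from -3.58 to -2.95 elsewhere, and rose by 0.77 ± 0.18 (adjusted p = 0.0217). The other probe of Itgal, above background on 6 of 8 arrays, gave 1.54. Itgam, the alpha chain of the macrophage integrin Mac-1, differed by -0.16 ± 0.17 by its brightest probe and was not called.

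All 8 macrophage markers also rose in GFP+ cluster cells, from 0.53 for Mrc1 to 2.07 for C1qc. Their summed linear level was 21.9 to 22.1 in GFP+ and 8.64 to 8.92 in GFP- cluster cells, with all 8 markers well above background in the GFP+ group. In endothelial cells the sum was 9.07 to 9.40 in the GFP+ and 4.24 to 4.31 in the GFP- group. The 5 general blood markers rose as well, with sums of 20.4 to 21.0 in GFP+ and 7.42 to 7.43 in GFP- cluster cells. The part of macrophages in the rise of Itgb2 and Itgal was not tested.

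Of the 14 tested alpha chains 5 fell and 3 rose, where 20.9% of all genes tested fell and 11.8% rose. Itga3, a laminin receptor chain, was read at -2.34 and -2.16 in GFP+ cluster cells and at -1.23 and -1.19 in GFP- cluster cells, with endothelial levels from -1.60 to -1.37. It was the highest in GFP- and the lowest in GFP+ cluster cells, and fell by 1.04 ± 0.072 on the log2 scale (adjusted p = 0.00033). Itga1, a collagen receptor chain, changed by -0.59 ± 0.059, and Itga6, the main laminin receptor chain, by -0.49 ± 0.064. Itga8, which binds nephronectin and fibronectin, changed by -0.48 ± 0.063, and Itga9, which binds tenascin and VCAM-1, by -0.29 ± 0.051. All 4 were called. The other collagen receptor chains were not called, with 0.07 ± 0.10 for Itga10 (adjusted p = 0.652), -0.26 ± 0.081 for Itga2 (0.0589) and -0.42 ± 0.22 for Itga11 (0.208).

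Among the laminins, Lama4 and Lama5, the alpha chains of vessel walls, moved apart. Lama4 was read at 1.86 and 1.95 in GFP+ cluster cells, 2.86 and 2.93 in GFP- cluster cells, and among endothelial cells at 2.94 and 2.93 with GFP and 3.17 and 3.23 without it. GFP+ cluster cells stood alone at the bottom, at -0.99 ± 0.054 from GFP- cluster cells (adjusted p = 0.000148). Lama5 was read at 1.04 and 1.06 in GFP+ cluster cells, 0.13 and 0.10 in GFP- cluster cells, and among endothelial cells at 1.38 and 1.38 with GFP and 0.13 and 0.20 without it. In both classes the GFP+ arrays lay above the GFP- arrays, and the cluster difference was 0.94 ± 0.044 (adjusted p = 9.37e-05). Lama1, the alpha chain of early embryonic basement membranes, changed by -0.93 ± 0.050, and Lamc1, the gamma chain of most laminins, by -0.69 ± 0.060. Lamb1 changed by -0.79 ± 0.046 outside the set. Of 9 markers of mesenchyme and smooth muscle, which also make laminins, 6 fell in the same comparison and 1, Acta2, rose. Their summed levels were 13.6 to 13.9 in GFP+ and 21.3 to 21.4 in GFP- cluster cells. Of 7 endothelial markers 3 fell and 0 rose (limma, with 4 and 0 at an unadjusted p under 0.05). Their sums were 76.9 to 79.0 in GFP+ and 95.4 to 96.6 in GFP- cluster cells. The part of mesenchymal and endothelial cells in the falls was not tested.

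Lamc3, a gamma chain of several tissues, rose by 0.61 ± 0.14 (adjusted p = 0.0226). Itgb4, which pairs with alpha-6 in the receptor of hemidesmosomes, rose by 0.62 ± 0.055 (adjusted p = 0.000752). Lamb3 passed the test, but its probe was not well above background in either cluster group, so no fold is given. Lama3 differed by 0.47 ± 0.17 and was not called (adjusted p = 0.0828), but its other probe, above background on all 8 arrays, gave 1.69. It was called in 3 of 17 alternatives: the mean of its probes (1.08, adjusted p = 0.000422), the slide as a block (0.00788) and trend and robust moderation (0.0315). Itga2 was called in 6 of 17 alternatives, the slide as a block among them (adjusted p = 0.0287).

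Of the 18 calls, 15 held when each of the 8 arrays was left out in turn. Itga9 was lost without replicate 1 of GFP- cluster cells, at -0.29 (adjusted p = 0.0528). Itgal was lost without the same array, at 0.65 (adjusted p = 0.108), and without replicate 2 of GFP+ cluster cells, at 0.66 (adjusted p = 0.0947), and so was Lamc3, at 0.48 (adjusted p = 0.107) and 0.48 (adjusted p = 0.0922). Without a filter on dim probes the calls of Itgal (adjusted p = 0.0632) and Lamc3 (0.0665) were lost, as with normexp fitted without 2 spots of high background (0.0755 and 0.163), and so was Lamc3 in the fit of the compared groups alone (0.0636).

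**Figure D2:**
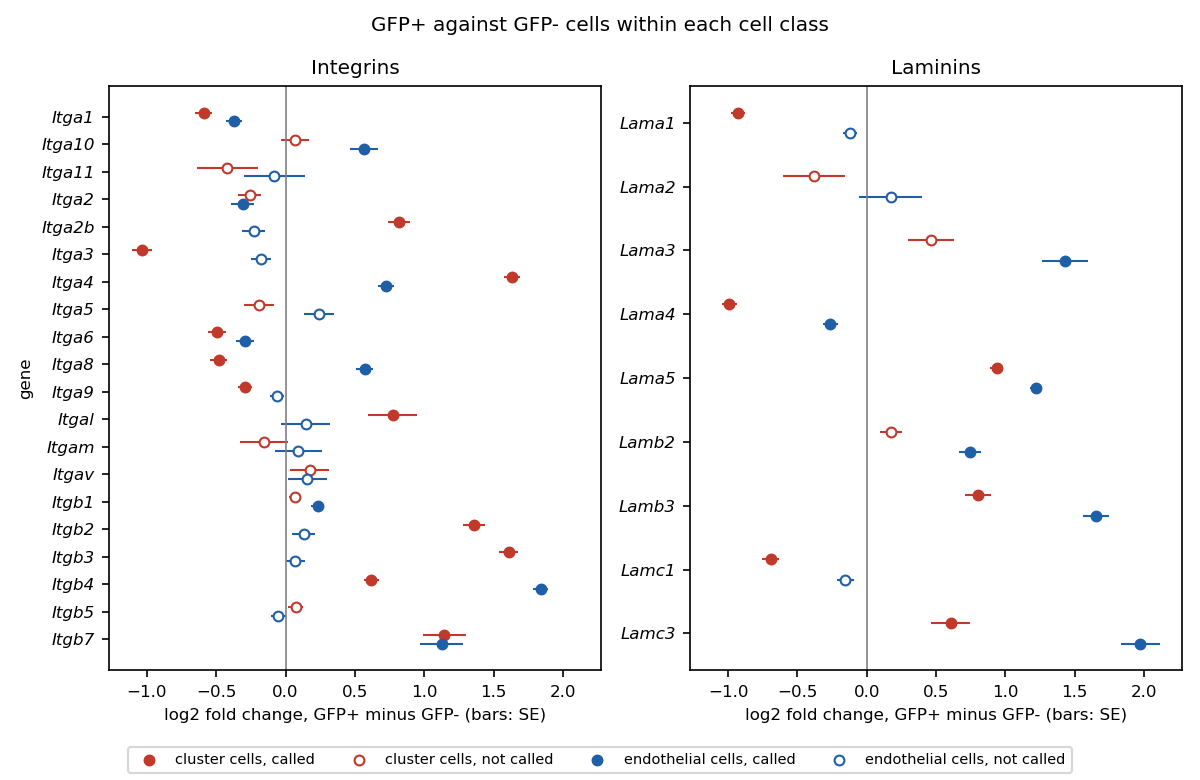
GFP+ minus GFP- log2 differences (points) with their SE (bars) for each tested integrin (left) and laminin (right), in cluster cells (red) and endothelial cells (blue). Filled points were called. Itgb3 lies at 1.61 (cluster) and 0.07 (endothelial), while Lamc3 lies at 0.61 in cluster and 1.97 in endothelial cells.

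The same question was asked of endothelial cells. Here 11 of the 29 tested members rose in the GFP+ group and 4 fell, where 18.1% of all genes tested rose and 33.3% fell (51.5% in all). Of the 9 laminins 5 rose, and Lamb3 among these passed the filter only through GFP+ endothelial cells. The 6 members that rose at least 2-fold were Lamc3, Itgb4, Lamb3, Lama3, Lama5 and Itgb7. Of the markers of other cells, all 8 of erythroid cells fell, and of 9 of mesenchyme 6 fell and 1 rose. The mesenchyme sums were 23.0 to 23.2 in GFP+ and 27.7 to 28.7 in GFP- endothelial cells. The erythroid sums were 138 to 145 and 637 to 657 in the same order. Of 7 endothelial markers 3 rose and 2 fell, with sums of 106 to 107 in GFP+ and 109 to 115 in GFP- endothelial cells. The part of these cells was not tested. The members' median log2 difference was 0.145 against -0.13 over all genes, 0.27 above it. With quantile normalization the median over all genes was -0.03 and its calls split into 4264 higher and 4147 lower, against 3546 and 6515 here, while the members' calls split into 11 higher and 2 lower.

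Lamc3 was read at -2.56 and -2.52 in GFP+ endothelial cells, -4.38 and -4.64 in GFP- endothelial cells, -4.22 and -3.96 in GFP+ cluster cells and -4.82 and -4.57 in GFP- cluster cells. GFP+ endothelial cells stood alone at the top, 1.97 ± 0.14 above GFP- endothelial cells, a 3.93-fold difference (adjusted p = 0.000398). Lama5, whose levels are given above, was 1.22 ± 0.044 higher (adjusted p = 7.67e-05). Lamb2, a beta chain of mature vessel laminins, was read at -0.23 and -0.21 in GFP+ endothelial cells, and from -1.37 to -0.95 on the other 6 arrays. It rose by 0.74 ± 0.079 (adjusted p = 0.00123).

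Lama3 and the receptor chain Itgb4 moved the same way. Lamb3 did so too, but it passed the filter on background only through GFP+ endothelial cells. Its rise there is thus not independent of the filter. Lama3 was read at -1.20 and -1.07 in GFP+ endothelial cells, and from -2.71 to -1.91 on the other 6 arrays, and rose by 1.43 ± 0.17 (adjusted p = 0.00157). Its other probe gave 2.73. Lamb3 was read at -3.75 and -3.80 in GFP+ endothelial cells, and from -5.70 to -4.78 on the other 6 arrays. It rose by 1.65 ± 0.094 (adjusted p = 0.000239), with the GFP- endothelial group above background on 1 of its 2 arrays.

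Itgb4 was read at -1.61 and -1.66 in GFP+ endothelial cells and at -3.51 and -3.44 in GFP- endothelial cells. In cluster cells it was read at -2.53 and -2.46 in the GFP+ and -3.14 and -3.07 in the GFP- group. No 2 groups overlapped, and the endothelial difference of 1.84 ± 0.055, a 3.58-fold one, was the largest of any tested integrin in that comparison (adjusted p = 5e-05). Epithelial markers were read beside it. Epcam and Cldn6 were not well above background in any group. The summed level of all 6 markers was 5.41 to 5.50 in GFP+ and 6.12 to 6.20 in GFP- endothelial cells. There 0 of 4 tested markers rose in the limma fit, also at an unadjusted p under 0.05, and 1 fell. In cluster cells the sum was 7.37 to 7.44 in the GFP+ and 5.32 to 5.36 in the GFP- group, with 1 tested marker higher and 3 lower. The part of epithelial cells in the rises of Itgb4, Lama3 and Lamb3 was not tested.

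Other integrins changed less. Itga4 rose by 0.73 ± 0.059 (adjusted p = 0.000574) and Itgb7 by 1.13 ± 0.15 (adjusted p = 0.00265), on the levels given above. All 8 macrophage and 4 of 5 blood markers rose too, and their part was not tested. Itga8 was read at 0.16 and 0.10 in GFP+ and at -0.41 and -0.47 in GFP- endothelial cells, and rose by 0.57 ± 0.063, opposite to its fall in cluster cells. Itga10, a collagen receptor chain of cartilage, rose by 0.57 ± 0.10, and Itgb1 by 0.23 ± 0.045; the other Itgb1 probe gave 0.03, and its call was lost with the mean of its probes (adjusted p = 0.0831) and with normexp fitted without the 2 spots (0.189). The platelet pair was not called, with -0.23 ± 0.081 for Itga2b (adjusted p = 0.0582) and 0.07 ± 0.068 for Itgb3 (adjusted p = 0.409). Unlike in cluster cells, 5 of 7 platelet markers fell. Gp6, Pf4, Gp5, Gp9 and Ppbp fell by 0.87 to 1.31 on the log2 scale, and Gp1ba rose by 0.30.

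The 4 that fell were Itga1 at -0.37 ± 0.059, Itga2 at -0.31 ± 0.081, Itga6 at -0.29 ± 0.064 and Lama4 at -0.26 ± 0.054. The direction of Itga6 turned with quantile normalization, at 0.03, and in the authors' deposited table, at 0.04, and Lama4 lost its call in both (adjusted p = 0.191 and 0.0883). Lamb1, outside the set, was at -0.22 ± 0.046, and turned to 0.09 and 0.06 in the same order. With the slide as a block 2 more were called, Itga5 at 0.24 (adjusted p = 0.0366, against 0.109 without it) and Lamc1 at -0.15 (0.0387 against 0.0804). Itga2 lost its call without a filter on dim probes (adjusted p = 0.0648) and with the compared groups alone (0.0537). Without single arrays 3 of the 15 calls were lost. Itga2 was lost without replicate 1 of the GFP+ group (-0.33, adjusted p = 0.0704), replicate 2 of it (-0.29, 0.0914) or replicate 1 of the GFP- group (-0.21, 0.0912), Itga6 without replicate 2 of the GFP+ (-0.27, 0.0601) or replicate 1 of the GFP- group (-0.24, 0.0651), and Lama4 without replicate 2 of the GFP- group (-0.23, 0.0545).

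**Figure D3:**
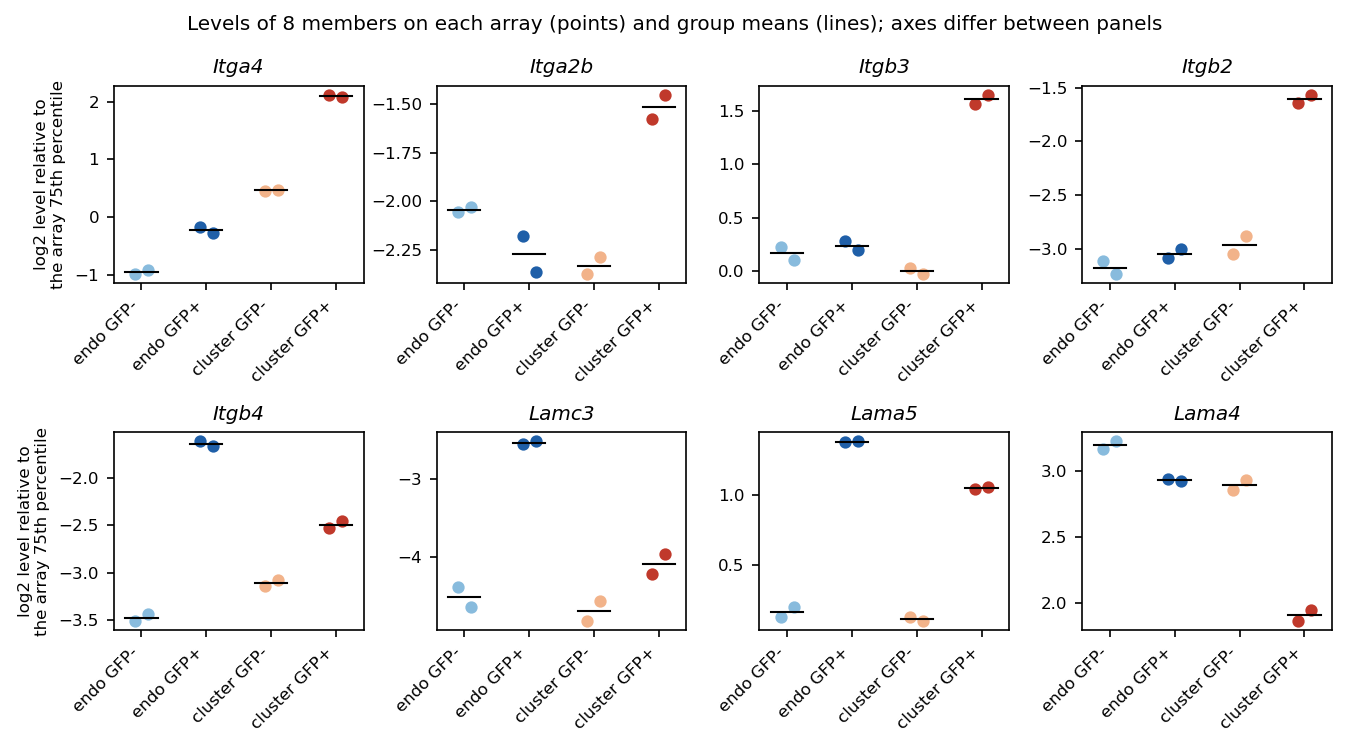
Levels of 8 members on each of the 8 arrays (points) with group means (lines), in log2 relative to the array's 75th percentile; axes differ between panels. Itgb3 in GFP+ cluster cells lies at 1.57 and 1.65 against at most 0.28 elsewhere, and Itgb4 in GFP+ endothelial cells at -1.61 and -1.66 against at most -2.46 elsewhere.

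The comparison of cluster with endothelial cells among GFP+ cells asks how adhesion genes differ across the step from vessel wall to cluster. Of the 29 tested members, 7 were higher in cluster cells and 16 lower, where 26.1% of all genes tested were higher and 24.2% lower (50.4% in all). Among the 9 laminins 8 were lower and 0 higher in the limma fit, and an unadjusted p under 0.05 gave the same 8 and 0. Lamb3, counted among the 8, passed the filter only through GFP+ endothelial cells. The laminin median was -0.87 and that of the 20 integrins -0.16, against 0.03 over all genes. Over 17 alternatives judged on the adjusted p alone, normexp over all spots left out, 7 to 8 laminins were lower and 0 higher.

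Lamc3 stood at -1.55 ± 0.14 in cluster against endothelial cells (adjusted p = 0.000585). Lama4 stood at -1.03 ± 0.054, Lama3 at -0.93 ± 0.17, Lamb2 at -0.87 ± 0.079, Lamc1 at -0.70 ± 0.060, Lama1 at -0.52 ± 0.050 and Lama5 at -0.33 ± 0.044. Lamb3 was not well above background in GFP+ cluster cells and was at least 1.89-fold lower there (adjusted p = 0.000602). Lama2, the alpha chain of muscle laminin, was the one not called, at -0.19 ± 0.23. Lamb1, outside the set, was at -0.76 ± 0.046.

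Other cell types' markers moved in this comparison too. Of 9 markers of mesenchyme and smooth muscle, 7 were lower in GFP+ cluster than in GFP+ endothelial cells and 0 higher (limma, also at an unadjusted p under 0.05), with summed levels of 13.6 to 13.9 against 23.0 to 23.2. All 7 endothelial markers were lower as well, with sums of 76.9 to 79.0 against 106 to 107. The part of mesenchymal cells in the laminin differences was not tested.

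Among the integrins 7 were higher in GFP+ cluster cells. Itga4 was 2.31 ± 0.059 higher, a 4.97-fold difference and the largest of any tested member in any of the comparisons between groups (adjusted p = 1.4e-05). Itgb2 was higher by 1.44 ± 0.080, Itgb3 by 1.38 ± 0.068, Itgal by 1.05 ± 0.18, Itga2b by 0.76 ± 0.081, Itgb7 by 0.54 ± 0.15 and Itgb5 by 0.30 ± 0.052. Itgb5 had levels of 0.59 and 0.53 in GFP+ and 0.47 and 0.51 in GFP- cluster cells, against 0.26 and 0.26 in GFP+ and 0.36 and 0.27 in GFP- endothelial cells, so both cluster groups lay above both endothelial groups. All 8 macrophage markers and 1 of 7 platelet markers, Gp9, were higher in GFP+ cluster cells, and 4 platelet markers were lower.

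The 8 integrins that were lower included the collagen receptor chains Itga1 at -0.61 ± 0.059 and Itga2 at -0.36 ± 0.081, though the other Itga1 probe gave -0.04. Itga5, the fibronectin receptor chain, was read at -0.39 and -0.12 in GFP+ cluster cells and at 0.47 and 0.62 in GFP+ endothelial cells, and differed by -0.80 ± 0.11 (adjusted p = 0.00234). Itgb4 stood at -0.86 ± 0.055, Itga3 at -0.70 ± 0.072, Itga8 at -0.69 ± 0.063, Itga9 at -0.46 ± 0.051 and Itgb1 at -0.32 ± 0.045, where the other Itgb1 probe gave -0.08. Itga6 differed by -0.14 ± 0.064 and was not called (adjusted p = 0.117). Of 23 calls, 21 held without each array in turn. Itgb7 was lost without replicate 1 (0.44, adjusted p = 0.131) or 2 (0.64, 0.0519) of GFP+ endothelial cells or replicate 2 of GFP+ cluster cells (0.41, 0.131), and Itga2 without replicate 1 of GFP+ endothelial (-0.34, 0.066) or replicate 2 of GFP+ cluster cells (-0.35, 0.0612). Itgb7 was also lost without a filter on dim probes (0.0648) and with the compared groups alone (0.0506), and Itgb1 with normexp fitted without the 2 spots (0.0525).

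**Figure D4:**
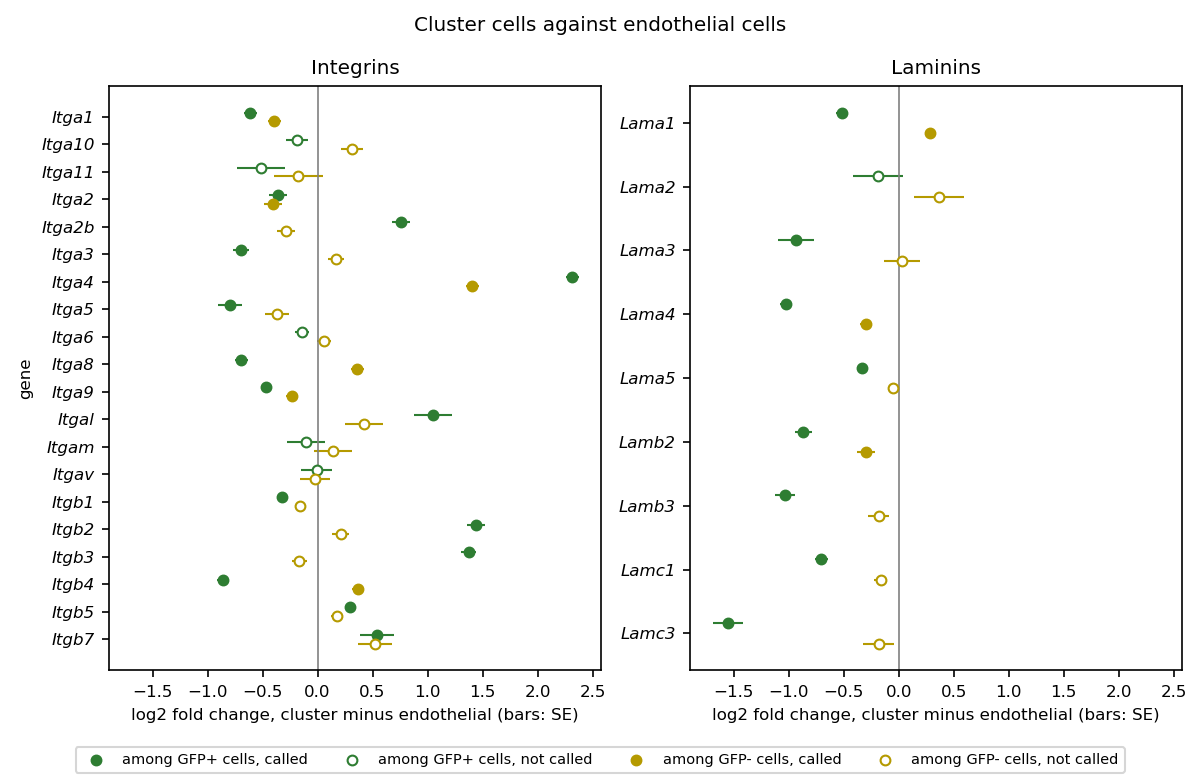
Cluster minus endothelial log2 differences (points) with their SE (bars) for each tested integrin (left) and laminin (right), among GFP+ cells (green) and GFP- cells (yellow). Filled points were called. The 8 called laminin differences among GFP+ cells lie from -1.55 to -0.33, while Itga4 lies at 2.31 among GFP+ and 1.41 among GFP- cells.

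Among GFP- cells the classes were closer. Of the 29 tested members, 4 were higher in cluster cells and 5 lower, where 11.9% of all genes tested were higher and 12.4% lower (24.3% in all). Itga4 was higher by 1.41 ± 0.059 (adjusted p = 0.000169), the one call that held without each array in turn. Itgb4 was higher by 0.37 ± 0.055, Itga8 by 0.36 ± 0.063 and Lama1 by 0.29 ± 0.050. Itga2 was lower at -0.41 ± 0.081, Itga1 at -0.39 ± 0.059, Lama4 at -0.30 ± 0.054, Lamb2 at -0.30 ± 0.079 and Itga9 at -0.23 ± 0.051. The other Itga1 probe gave -0.09. Lama4 lost its call with quantile normalization (adjusted p = 0.06) and in the authors' deposited table (0.0518), and so did Itga9 (0.0592 and 0.069). The members' count fell from 9 to 2 without replicate 1 and 4 without replicate 2 of GFP- endothelial cells, and to 3 without either array of GFP- cluster cells. Without a filter on dim probes it was 2, with Itga2, Itga8, Itga9, Itgb4, Lama1, Lama4 and Lamb2 lost (adjusted p from 0.0515 to 0.144). With the slide as a block it was 11, with Itga10 at 0.31 (adjusted p = 0.0346) and Itga5 at -0.37 (adjusted p = 0.0243) added. Markers also moved. All 8 erythroid, 7 of 8 macrophage and all 5 blood markers were higher in cluster cells. All 7 platelet, 6 of 9 mesenchyme and 5 of 7 endothelial markers were lower, and 0 markers of these lists were higher. The part of these cells in the members' differences was not tested.

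The difference between the GFP differences was tested directly, as that in cluster cells minus that in endothelial cells. It was called positive for 4 tested members and negative for 12, where 15.7% and 15.5% of all genes tested were called (31.1% in all). The 4 positive ones were Itgb3 (1.54 ± 0.096), Itgb2 (1.23 ± 0.11), Itga2b (1.05 ± 0.11) and Itga4 (0.91 ± 0.083). Of the 9 laminins, 8 were negative and 0 positive in the limma fit, with the same counts at an unadjusted p under 0.05. Over 16 such alternatives 5 to 8 were negative and 0 positive. Lamb3, counted among the 8, passed the filter only through GFP+ endothelial cells. The 4 integrins that were negative were Itgb4, Itga8, Itga3 and Itga10. Itgb7 did not differ beyond its error, at 0.02 ± 0.22 (adjusted p = 0.953). Itga5 was added in the fit blocked by slide, at -0.43 (adjusted p = 0.0297).

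Adaptors, regulators and binding proteins of integrins were read from a list of 37 genes, of which 35 were tested. The list was not limited to proteins that activate integrins. In cluster cells 9 rose and 11 fell with GFP (all genes 11.8% and 20.9%). The risers were led by Ptk2b (2.08 ± 0.16), a focal adhesion kinase relative, Apbb1ip (1.88 ± 0.12), the RIAM adaptor that brings talin to integrins, Fyb (1.70 ± 0.32), an adaptor of T cells and platelets, and Parvg (1.41 ± 0.093), the parvin of blood cells. Tln2 (-0.82 ± 0.047), a relative of talin-1, Bcar1 (-0.65 ± 0.068), Parvb (-0.62 ± 0.064) and Parva (-0.54 ± 0.052) fell. In endothelial cells 13 rose, led by Ptk2b (1.62), Apbb1ip (1.45), Lims2 (1.31) and Fyb (1.21), and 7 fell, led by Itgb3bp (-0.82), Src (-0.73), Tln2 (-0.68) and Rasgrp2 (-0.41) (all genes 18.1% and 33.3%). Actn4, among these 7 at -0.26, turned to 0.02 with quantile normalization and 0.02 in the authors' deposited table.

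The same list was compared between the classes. Among GFP+ cells 8 were higher and 17 lower in cluster cells (all genes 26.1% and 24.2%). The higher ones were led by Ptk2b (2.14), Parvg (2.14), Apbb1ip (2.10) and Fermt3 (1.71), the kindlin of blood cells. The lower ones were led by Lims2 (-0.94), Parvb (-0.78), Fblim1 (-0.77) and Tns1 (-0.75), which sit in focal adhesions. Among GFP- cells 3 were higher, Ptk2b (1.68), Apbb1ip (1.67) and Parvg (1.12), and 6 lower (all genes 11.9% and 12.4%). The GFP difference in cluster minus that in endothelial cells was positive for 4, Fermt3 (1.75), Parvg (1.02), Itgb3bp (0.50) and Rasgrp2 (0.48), and negative for 13 (all genes 15.7% and 15.5%). Of these 4, Itgb3bp was negative in both classes, at -0.31 and -0.82, and Rasgrp2 stood at 0.07 and -0.41.

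Ligands of integrins formed another list of 27 genes, with 24 tested. In cluster cells 4 rose with GFP and 12 fell (all genes 11.8% and 20.9%). The risers were Jam2 (1.71 ± 0.059), a junction protein that alpha-4 with beta-1 binds, Vwf (1.36 ± 0.10), Ltbp1 (0.50 ± 0.066) and fibronectin Fn1 (0.34 ± 0.074). Of the 12 that fell, Icam4 (-2.71 ± 0.10), a red cell ligand of leukocyte integrins, Madcam1 (-1.22 ± 0.051), Edil3 (-0.95 ± 0.16) and Postn (-0.87 ± 0.074) changed most among those above background in both groups. In endothelial cells 8 rose, with Vwf (2.27), Jam2 (1.90), Fn1 (0.86) and Icam1 (0.80) in front, and 9 fell (all genes 18.1% and 33.3%). Among GFP+ cells 18 were lower in cluster than in endothelial cells, among them Fgb (-1.34), Thbs1 (-1.30) and Vwf (-1.26), and 1, Icam4 (0.48), was higher (all genes 24.2% and 26.1%). Among GFP- cells 3 were higher, Icam4 (1.58), Vcam1 (0.44) and Jam3 (0.18), and 8 lower (all genes 11.9% and 12.4%). The GFP difference in cluster minus that in endothelial cells was negative for 12 and positive for 1, Thbs1 (0.40) (all genes 15.5% and 15.7%). Erythroid markers moved beside Icam4: their summed level was 131 in GFP+ and 917 to 933 in GFP- cluster cells, and their part in its fall was not tested.

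The laminins' partners in the basement membrane and their receptors outside the integrins made a further list of 20 genes, with 18 tested. In cluster cells 0 rose with GFP, 1 at an unadjusted p under 0.05, and 12 fell (all genes 11.8% and 20.9%), among them Col15a1 (-1.48 ± 0.15), Smoc2 (-1.15 ± 0.043), Col4a6 (-0.87 ± 0.079) and Col4a5 (-0.66 ± 0.091). In endothelial cells 6 rose, led by Bcam (1.58 ± 0.14), the Lutheran receptor for laminin alpha-5, Agrn (0.61 ± 0.062), Col4a1 (0.47 ± 0.044) and Col4a2 (0.34 ± 0.057), and 8 fell, led by Col15a1 (-1.93 ± 0.15) (all genes 18.1% and 33.3%). Sparc, among these 8 at -0.33, turned to 0.07 with quantile normalization and 0.06 in the authors' deposited table. Lama5 and Bcam, a ligand and its receptor, were thus both higher in GFP+ than in GFP- endothelial cells. Among GFP+ cells 14 of the 18 were lower in cluster than in endothelial cells, among them Bcam (-1.42), Col4a2 (-1.13), Smoc2 (-1.01) and Col4a1 (-0.98), and 2 were higher, Smoc1 (1.14) and Col4a4, which was above background on 1 array of GFP+ endothelial cells (all genes 24.2% and 26.1%). Among GFP- cells 1 was higher, Smoc1 (0.86), and 8 were lower (all genes 11.9% and 12.4%). The GFP difference in cluster minus that in endothelial cells was negative for 11 and positive for 1, again Col4a4 (all genes 15.5% and 15.7%).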

How the data were processed

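RNA of 4 sorted groups was read on 8 one-colour Agilent arrays, 2 a group, from 2 fractions of each group's RNA, of which 50 ng was labelled after amplification. The members and the gene lists were chosen with earlier results of these data known; 1 member and 1 marker gene are not reported here. Per the file headers, the deposited scanner intensity is the background-subtracted processed signal of Agilent Feature Extraction 10.10.1.1. The authors also deposited a table of processed intensity values, with a median of 198 on every array; its scaling is not stated by the sources at hand, and its columns correlated with the scanner values at r from 0.9974 to 0.9997.

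Control spots were left out, and the 43020 others were averaged by probe. Another 10 probes lacked a usable spot on some array and were left out, so 39419 probes remained. Each array's log2 intensity was centred on its 75th percentile, which lay between 708.3 and 1477. Genes took the brightest probe. Names came from the accession for 26049 probes and from a current symbol for 3194, by the GRCm38.p6 RefSeq table, and stayed as in the file for 10176. Probe coordinates are mm9, per the file headers. A gene was tested if 1 or more groups had a signal well above background on each of their arrays.

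One limma 3.58.1 fit (R 4.3.3) held all 4 groups with no block, with 4 residual degrees of freedom, and 5 contrasts, each adjusted by Benjamini-Hochberg over 19538 genes. All replicate 1 arrays lay on one slide and all replicate 2 arrays on the other. Deviations of same-numbered arrays correlated at r from 0.139 to 0.359, over 0.1 in every pair, so arrays that share a slide deviated together. The main fit leaves this pairing out, and the slide as a block is an alternative. On simulated data for the cluster comparison, 37% of 100 genes changed by 0.5 (log2) and 70% of 100 changed by 1 were recovered among 19538, and 8 unchanged genes were called. The data themselves gave 6397 calls in this comparison. The Benjamini-Hochberg cutoff depends on the share of changed genes, so the simulated rates do not carry over to the data. Every member reported was named; from each list up to 4 called genes a direction, by size of change among those above background in both groups. Alternatives were normexp (offset 50), quantile normalization, the authors' table, other filters, the mean of probes, trend and robust moderation, a block for the slide, the compared groups alone, a 2-fold minimum and leaving out each array.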

Additional observations from a re-analysis of the deposited data

Results flagged for a closer look

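For 16 of the 29 tested members the GFP difference in cluster cells minus that in endothelial cells was called by limma (all genes 31.1%). It was positive for 4 members, all blood and platelet integrins, and negative for 12 (all genes 15.7% and 15.5%). Itgb3 rose by 1.61 in cluster cells and stood at 0.07 in endothelial cells, a difference of 1.54 ± 0.096 (adjusted p = 0.00128). Itgb2 stood at 1.36 and 0.13, differing by 1.23 ± 0.11 (adjusted p = 0.00246), and Itga2b at 0.82 and -0.23, differing by 1.05 ± 0.11 (adjusted p = 0.00358). Itga4 rose in both, by 1.63 and 0.73, with a difference of 0.91 ± 0.083 (adjusted p = 0.00245). Beside these, 5 of 7 platelet markers had a positive interaction, and 3 of 8 macrophage markers a positive and 1 a negative one.

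Among the integrins with a negative value, Itgb4 rose in both classes, by 0.62 in cluster and 1.84 in endothelial cells (-1.22 ± 0.077, adjusted p = 0.00128). Itga8 was called in opposite directions, at -0.48 and 0.57 (-1.05 ± 0.088, adjusted p = 0.00207), and Itga3 stood at -1.04 and -0.17 (-0.86 ± 0.10, adjusted p = 0.00437). Itga10 stood at 0.07 and 0.57 (-0.50 ± 0.14, adjusted p = 0.0462), and its call was lost without any of 7 arrays (adjusted p up to 0.122).

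The laminins with a negative value are given by their own differences. Lamc3 (-1.37 ± 0.20), Lama3 (-0.96 ± 0.23), Lamb3 (-0.85 ± 0.13), Lamb2 (-0.57 ± 0.11) and Lama5 (-0.28 ± 0.062) rose in endothelial cells, though Lamb3 was not well above background in either cluster group, so its value is no measure of size, and of these Lamc3, Lamb3 and Lama5 passed the test in the same direction in cluster cells. Lama1 (-0.80 ± 0.071), Lama4 (-0.73 ± 0.076) and Lamc1 (-0.54 ± 0.085) fell in cluster cells and stood between -0.26 and -0.12 in endothelial cells. Lama3 was lost without any of 6 arrays (adjusted p up to 0.0884), Lama5 without any of 7 (up to 0.0764) and Lamb2 without replicate 2 of GFP- endothelial cells (-0.55, adjusted p = 0.0553). Lamb3 was lost with quantile normalization (adjusted p = 0.111), in the authors' deposited table (0.124) and with trend and robust moderation (0.0844). Without a filter on dim probes Itga10 (adjusted p = 0.119), Lama3 (0.08), Lama5 (0.0971) and Lamb2 (0.0583) were lost, and with normexp fitted without 2 spots of high background Itga10 (0.0794), Lama3 (0.0734), Lama5 (0.0534) and Lamb3 (0.0502).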

How the results depend on the processing

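The limits are these: 2 arrays a group from 1 pool of embryos, 4 residual degrees of freedom, and probes near background, with Lamb3 and Itga11 the members not above background on all 8 arrays. Counts are in the order cluster GFP, endothelial GFP, cluster against endothelial among GFP+, the same among GFP-, and interaction, with 18, 15, 23, 9 and 16 members and 6397, 10061, 9840, 4742 and 6085 of all genes called. The slide as a replicate block gave 20, 17, 23, 11 and 17 members and 6879, 11147, 10784, 5235 and 7094 genes; it added the 7 member calls given with the comparisons (Itga2 and Lama3; Itga5 and Lamc1; Itga10 and Itga5; Itga5) and changed no other call. Without each array in turn, members ranged from 15 to 19, 13 to 16, 21 to 23, 2 to 9 and 13 to 17, and all genes from 3679 to 5736, 7216 to 10080, 7466 to 9137, 1606 to 4214 and 3589 to 4657. All-gene counts moved by over 1.5 times for the first without replicate 1 (3679) or 2 (4071) of GFP- cluster cells, for the fourth without replicate 1 (2014) or 2 (1964) of GFP- endothelial or 1 (1648) or 2 (1606) of GFP- cluster cells, and for the interaction without replicate 1 (3882) or 2 (3902) of GFP- endothelial or replicate 1 (3589) of GFP- cluster cells. A 2-fold minimum left 5, 6, 7, 1 and 6 members and 1052, 1398, 1928, 418 and 1109 genes. With no filter on dim probes 2 members were called among GFP- cells, and 3792 genes for cluster GFP, 1466 among GFP- cells and 2743 in the interaction. Among GFP- cells 15 members were called with genes above background on all 8 arrays, 16 with trend and robust moderation, and 5 with the compared groups alone, where all genes gave 2576; the cause was not tested. Planned normexp over all spots gave 2, 1, 2, 0 and 0 members (limma; 9, 4, 10, 5 and 8 at an unadjusted p under 0.05) and 127, 100, 137, 14 and 1 genes. On replicate 2 of GFP- endothelial cells 2 spots raised the 1st percentile of its values to 685, against 56.6 to 75.3 elsewhere. Without those spots, an alternative chosen after seeing the data, members were 17, 14, 22, 6 and 12, with 2738 genes among GFP- cells and 3781 in the interaction, and no member called in the report turned its direction. Over all spots normexp turned Itga6 (0.0501), Lama4 (0.0501), Itgb7 (-0.28), Lamb3 (-0.53), Lamc3 (-0.12) and Lamb1 (0.11) for endothelial GFP, Itgb4 (-0.65) and Lamb1 (0.12) among GFP- cells, and Itga10 (0.0121), Itgb4 (0.10), Lamb3 (0.77) and Lamc3 (0.35) in the interaction. For endothelial GFP, Itga6 and Lamb1 turned with quantile normalization (0.0342 and 0.0856) and in the authors' deposited table (0.0384 and 0.0557), where all genes split into 4114 higher and 4379 lower. With the mean of a gene's probes Itgam turned to 0.82 among GFP+ cells (adjusted p = 0.0262).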

Other observations

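Where a member had several probes, they did not always give the same difference. The 3 Itgam probes differed by -0.11, 0.78 and 1.77 between GFP+ cluster and GFP+ endothelial cells, and by -0.16, -0.01 and 0.83 between GFP+ and GFP- cluster cells, in the same order. Itgam is the alpha chain of macrophages and other myeloid cells, and the brightest probe, which gave its reported value, moved least in the first comparison. The other Lama3 probe differed by 2.73 between GFP+ and GFP- endothelial cells, against 1.43 for the brightest, and by 1.69 against 0.47 in cluster cells.

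The macrophage and dendritic cell chain Itgax was not well above background on any array and has no reported fold.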
